A study of Mus musculus with 9 samples.

Results

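Proteasome genes were followed in mouse F9 embryonal carcinoma cells after 24 h with vehicle, retinoic acid (RA) or trichostatin A (TSA). The members are the probe sets whose single platform gene symbol begins with Psma, Psmb, Psmc, Psmd or Psme. This gave 53 of 12422 probe sets, for 42 of 8251 gene symbols. Of these, 2 symbols name no proteasome part and are described apart, Psmc3ip, a factor of meiotic recombination, and Psme3ip1, which encodes a partner protein of Psme3. The other 51 probe sets cover 40 genes and fall into the alpha ring (7 probe sets), the constitutive beta ring (12), the immunoproteasome beta subunits (3), the ATPases of the regulatory particle (9), its other subunits (13), its assembly chaperones (3) and the activators (4). The activator subunit Psme2 had no probe set with a single symbol. Left out were 2 probe sets that list several symbols, among them a symbol beginning as those of the members do.

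The proteasome degrades proteins tagged with ubiquitin. Its core particle is a barrel of outer alpha rings and inner beta rings, and 3 beta subunits of each inner ring carry the proteolytic sites: Psmb6 (beta 1, caspase-like), Psmb7 (beta 2, trypsin-like) and Psmb5 (beta 5, chymotrypsin-like). Interferon can replace them with Psmb9, Psmb10 and Psmb8, which form the immunoproteasome and favour peptides that bind MHC class I molecules. A regulatory particle with a ring of ATPases (Psmc genes) and a lid and base of other subunits (most Psmd genes) recognises, unfolds and feeds in the substrate, and the Psme genes encode activators that cap the core without ATP.

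F9 is an established line of undifferentiated tumour cells that moves toward endoderm when given retinoic acid. The 9 arrays were 3 with the ethanol vehicle, 3 with 0.5 µM RA and 3 with 0.07 µM TSA, an inhibitor of histone deacetylases. All groups were kept for 24 h. Nothing in the labels says that the replicates came from separate cultures, and the spread behind each p-value may therefore be technical. Each value is a ratio to the mean of the 3 vehicle arrays for the same probe set, so it shows change and not abundance. For that reason neither the levels of different subunits nor the presence of the marker genes of F9 cells can be read from it. In bulk RNA, more RNA per cell and more cells with the RNA cannot be told apart. The embryonal carcinoma markers (Pou5f1, Nanog, Sox2, Zfp42, Utf1, Tdgf1, Dppa5a and Fgf4) had ratios with array medians of 0.849 to 1.10 in vehicle, 0.475 to 0.578 in RA and 0.472 to 0.630 in TSA. These medians hide differences between the markers. Mean ratios in RA and TSA were 0.282 and 0.901 for Zfp42, 0.615 and 0.947 for Sox2, and 0.760 and 0.512 for Dppa5a. Array medians over all probe sets were 0.975 to 1.02 in vehicle, 0.862 to 0.915 in RA and 0.821 to 0.878 in TSA. The control probe sets for 18S rRNA had median ratios from 0.0336 to 2.40, and vehicle replicate 3 (2.40) and RA replicate 3 (0.961) had the top values.

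In TSA, 1 of the 53 proteasome probe sets changed, that of Psmb9, which rose to a mean ratio of 12.7. The call rule was an adjusted p under 0.05 in limma's test with Benjamini-Hochberg adjustment over all 12422 probe sets, which 3.48% of all probe sets passed in TSA (2.21% with a rise). In RA none of the 53 passed in limma's test, where the share of all probe sets was 1.36%, and 3 of the 53 had an unadjusted p under 0.05 against 12.7% of all. In TSA 14 of the 53 had an unadjusted p under 0.05, against 19.6%. Between RA and TSA, Psmb9 again was the 1 member that passed (3.91% of all probe sets), and 6 had an unadjusted p under 0.05 (17.1% of all). The members' counts thus lay below the background, except the count by unadjusted p in TSA, which lay somewhat above it.

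Psmb9 (probe set 93085_at), the beta 1 subunit of the immunoproteasome, had ratios of 0.830, 0.907 and 1.26 on the vehicle arrays. In RA they were 0.932, 0.944 and 1.13. In TSA they were 10.3, 15.3 and 12.5. The RA arrays lay within the vehicle range, and the lowest TSA array lay far above all others. The mean ratio in TSA was 12.7 ± 2.51 (SD, n = 3), a log2 change of 3.60 (SE 0.23), with an adjusted p of 9.64e-04 by limma. By unadjusted p it ranked 1 of 12422 probe sets in this comparison, and by size of the rise 29. The direct difference between RA and TSA was -3.58 on the log2 scale (SE 0.23, adjusted p = 2.52e-04, limma), while RA against vehicle gave 0.02 (SE 0.23, adjusted p = 0.985).

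Psmb8 (102791_at), the beta 5 subunit of the immunoproteasome, had ratios of 0.215, 0.810 and 1.98 in vehicle, a range of nearly an order of magnitude. In RA it was at 1.56, 0.862 and 5.47. In TSA it was at 5.06, 6.93 and 5.95. The TSA arrays all lay above the vehicle arrays, but RA replicate 3 lay among them. The log2 change in TSA was 2.95 (SE 0.80), with a 95% interval of 1.12 to 4.79 and an adjusted p of 0.0894 (limma), so it did not pass. Without vehicle replicate 3, its highest vehicle array, it was 3.65 with an adjusted p of 0.0494 (limma). When RA replicate 3 was left out as well the adjusted p was 0.0282. Psmb8 passed in only these 2 of the 19 other settings. Leaving out 1 array at a time gave changes from 2.18 to 3.65, and quantile normalisation an adjusted p of 0.277 (limma). On vehicle replicate 3 and RA replicate 3, which had the highest 18S signal, Psmb8 was the highest of its group. The part of that signal in this was not tested. In RA the change was 1.38 (SE 0.80, adjusted p = 0.532, limma).

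Psmb10 (101486_at), the beta 2 subunit of the immunoproteasome, lay lower in both treatments. Its ratios were 1.08, 1.09 and 0.828 in vehicle, 0.702, 0.473 and 0.566 in RA, and 0.710, 0.613 and 0.749 in TSA. The arrays of each treatment all lay below the vehicle arrays. The log2 changes were -0.74 (SE 0.21, adjusted p = 0.159) in RA and -0.50 (SE 0.21, adjusted p = 0.241) in TSA by limma, and neither passed. The change in RA was the lowest of the 53 members, before Psmc3ip (-0.58).

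**Figure D1:**
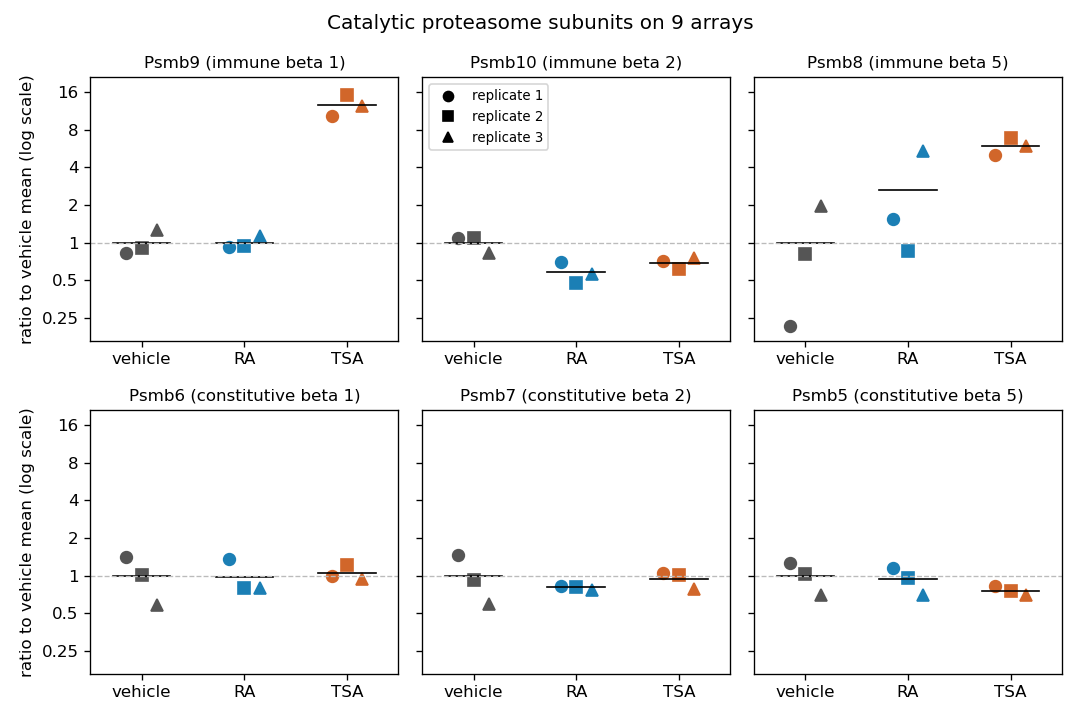
Ratios to the vehicle mean (vertical axis, log scale) of the immune catalytic subunits (upper row) and their constitutive counterparts (lower row) on the vehicle, RA and TSA arrays. Symbols mark replicates and lines the group means; Psmb9 stands at 10.3 to 15.3 and Psmb8 at 5.06 to 6.93 in TSA, while Psmb6, Psmb7 and Psmb5 stay between 0.578 and 1.47 on all arrays.

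The constitutive counterparts did not pass in any comparison. Psmb6 had ratios of 1.40, 1.02 and 0.578 in vehicle, 1.35, 0.794 and 0.792 in RA, and 0.987, 1.21 and 0.949 in TSA. Its log2 change in TSA was 0.14, with a 95% interval of -0.63 to 0.91. Psmb7 was measured by 94263_f_at, whose suffix f marks probes shared with related genes. The same limit holds for other members whose probe set carries that suffix. Psmb7 had 1.47, 0.933 and 0.597 in vehicle, 0.834, 0.809 and 0.773 in RA, and 1.05, 1.01 and 0.780 in TSA. Its change in TSA was 0.00, with an interval of -0.68 to 0.69. For Psmb5 the probe set 101558_s_at gave 1.25, 1.04 and 0.704 in vehicle, 1.16, 0.952 and 0.707 in RA, and 0.833, 0.751 and 0.696 in TSA. A further probe set of Psmb5, 160559_at, gave 0.781, 1.22 and 0.997 in vehicle, 0.635, 1.22 and 0.769 in RA, and 0.878, 0.680 and 0.969 in TSA. Their changes in TSA were -0.34 (interval -0.94 to 0.26) and -0.23 (interval -0.88 to 0.42). The treated arrays of each of these probe sets overlapped the vehicle arrays.

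Dividing the ratio of each immune subunit by that of its counterpart on the same array takes out any scaling of the array. Psmb9 over Psmb6 was 0.592, 0.889 and 2.18 in vehicle, 0.691, 1.19 and 1.43 in RA, and 10.4, 12.6 and 13.2 in TSA. Psmb8 over Psmb5 (101558_s_at) was 0.171, 0.778 and 2.81 in vehicle, 1.34, 0.906 and 7.73 in RA, and 6.07, 9.22 and 8.55 in TSA. Psmb10 over Psmb7 was 0.737, 1.17 and 1.39 in vehicle, 0.841, 0.585 and 0.732 in RA, and 0.673, 0.605 and 0.960 in TSA. The first quotient separated TSA from both other groups, and the second separated TSA from vehicle but not from RA replicate 3. The third overlapped between TSA and vehicle. These quotients were not tested; with 3 arrays against 3, an exact two-sided permutation test cannot give a p below 0.10.

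Psmb9 and Psmb8 lie close together in the MHC region of mouse chromosome 17, with Tap1 between them and Tap2 after Psmb8. Tap1 and Tap2 encode the peptide transporter that brings proteasome products to MHC class I molecules. In the RefSeq annotation of GRCm38.p6 the order of protein-coding genes is Psmb9, Tap1, Psmb8 and Tap2, and Psmb9 and Tap1 are read in opposite directions from starts 226 bases apart. The RefSeq promoter windows, 250 bases before to 50 after each start, of Psmb9 and Tap1 share 275 bases. The windows of the pair that differed most within a catalytic site, Psmb9 and Psmb6, and of Psmb8 are shown 5′ to 3′ on each gene's strand, at chr17:34187281-34187580 (minus strand), chr11:70525107-70525406 (plus strand) and chr17:34197945-34198244 (plus strand) of GRCm38.p6. Capitals mark matches to the motifs named after them.
Psmb9: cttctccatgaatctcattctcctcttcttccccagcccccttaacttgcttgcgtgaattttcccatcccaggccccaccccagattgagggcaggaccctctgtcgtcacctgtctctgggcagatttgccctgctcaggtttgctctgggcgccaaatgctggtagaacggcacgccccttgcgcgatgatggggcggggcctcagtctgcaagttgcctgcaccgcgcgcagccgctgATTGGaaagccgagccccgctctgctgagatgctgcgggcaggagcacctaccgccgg
Psmb6: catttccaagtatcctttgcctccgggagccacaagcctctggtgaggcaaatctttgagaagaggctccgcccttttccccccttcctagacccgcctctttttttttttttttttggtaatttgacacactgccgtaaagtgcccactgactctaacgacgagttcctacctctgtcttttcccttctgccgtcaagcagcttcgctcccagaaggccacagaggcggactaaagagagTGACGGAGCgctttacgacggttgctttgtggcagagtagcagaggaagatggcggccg
Psmb8: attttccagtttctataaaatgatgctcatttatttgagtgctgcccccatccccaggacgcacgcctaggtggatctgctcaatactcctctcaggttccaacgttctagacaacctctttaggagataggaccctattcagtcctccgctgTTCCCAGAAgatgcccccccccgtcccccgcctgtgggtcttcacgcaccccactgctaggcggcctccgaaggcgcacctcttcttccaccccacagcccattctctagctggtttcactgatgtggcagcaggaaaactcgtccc

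The motifs searched on both strands were CCAAT (bound by NF-Y), TGACNNNGC and TGAGNNNGC (cores of the antioxidant response element, bound by Nfe2l1 and Nfe2l2), the interferon-stimulated response element and TTCNNNGAA (gamma-activated site). The Psmb9 window held CCAAT, in reverse, 8 bases before the start. Psmb6 held TGACNNNGC 9 bases before the start, and Psmb8 held TTCNNNGAA 97 bases before it. Of the 40 member genes 34 had a window, 36 windows in all. CCAAT lay in 13 of the 36 (36.1%, against 37.4% of all 32851 windows), TGACNNNGC in 6 (16.7%, against 12.4%), TGAGNNNGC in 12 (33.3%, against 17.6%), the interferon-stimulated element in 4 (11.1%, against 3.44%) and TTCNNNGAA in 2 (5.56%, against 8.30%). The windows with the interferon-stimulated element were those of Psmb3, Psmd4, Psmd9 and Psme1, none of which passed in any comparison. A match describes letters only, and motifs outside these windows were not searched.

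Tap1, the closest neighbour, did not pass in any comparison. Its probe set 103035_at had ratios of 0.818, 1.14 and 1.04 in vehicle, 1.09, 0.923 and 0.987 in RA, and 1.08, 1.04 and 1.29 in TSA. The log2 change in TSA was 0.18 (95% interval -0.26 to 0.63, adjusted p = 0.658, limma), and that of its further probe set 162278_r_at was -0.37. Psmb9 over Tap1 (103035_at) was 1.01, 0.795 and 1.21 in vehicle and 9.54, 14.7 and 9.70 in TSA, so Psmb9 stood far above Tap1 on every TSA array relative to vehicle. Tap2 had 0.485, 1.18 and 1.33 in vehicle, 1.03, 0.657 and 1.04 in RA, and 0.805, 2.72 and 1.17 in TSA. Its TSA arrays overlapped the vehicle arrays (log2 change 0.55, interval -0.58 to 1.69).

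**Figure D2:**
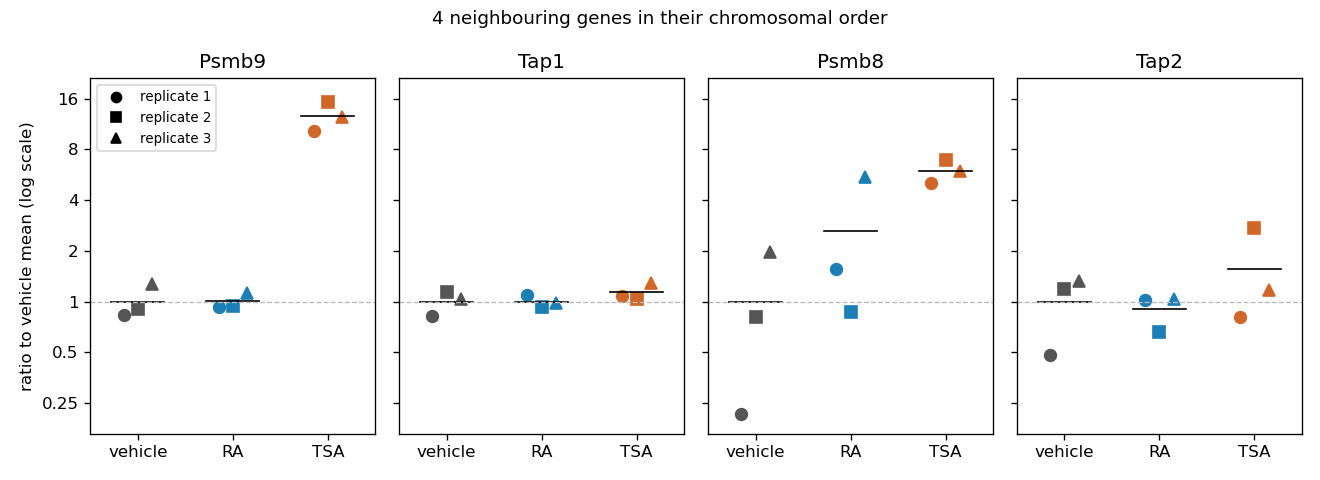
Ratios to the vehicle mean (vertical axis, log scale) of Psmb9, Tap1 (103035_at), Psmb8 and Tap2 on the vehicle, RA and TSA arrays, in the order of the genes on the chromosome. Lines are group means; Psmb9 and Psmb8 are high on all 3 TSA arrays, whereas Tap1 runs from 0.818 to 1.29 over all arrays and Tap2 is high on TSA replicate 2 alone, at 2.72.

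Among the other genes of interferon response and antigen presentation, probe sets of the class I heavy chains rose in TSA. Of 16 genes listed, 12 were measured, by 20 probe sets. In TSA, where 2.21% of all probe sets rose, 6 of the 20 did so and none fell. They were 3 probe sets of H2-D1 (1.16, 1.50 and 2.63 on the log2 scale), 2 of H2-K1 (1.49 and 2.36) and that of Irf8 (1.10), a transcription factor. The adjusted p ranged from 0.00541 to 0.0260 (limma). The other H2-K1 probe set did not pass (-0.52), and the 5 passing H2 probe sets carry the suffix f, which marks probes shared with related genes, so these class I genes cannot be told apart. B2m, the light chain, had ratios of 1.25, 1.32 and 0.435 in vehicle and 3.25, 5.61 and 2.20 in TSA. Its change of 1.87 did not pass (adjusted p = 0.0711, limma). Irf1, which acts downstream of interferon, had 1.17, 0.862 and 0.971 in vehicle, 2.00, 2.01 and 1.91 in RA, and 1.04, 1.33 and 0.269 in TSA. It passed in neither treatment (0.96 in RA and -0.41 in TSA). In RA 1 of the 20 probe sets rose, H2-K1 97125_f_at by 1.60, where its TSA value was 2.36 (adjusted p in RA 0.0338, limma). Of all probe sets 1.36% passed in RA, in either direction. The median log2 change of the 20 was 0.38 in RA and 0.54 in TSA, against -0.12 and -0.17 over all probe sets.

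Immune cells are known for a high content of immunoproteasome, and markers of other cell types were therefore measured beside Psmb9. Of 8 immune genes 7 were measured, by 11 probe sets, and 1 rose in TSA, Cd74 (1.68), the invariant chain of MHC class II. Of all probe sets 2.21% rose in TSA. The summed ratio of the 11 was 9.01 to 14.7 in vehicle, 9.14 to 13.1 in RA and 12.8 to 17.6 in TSA. The pan-leukocyte gene Ptprc did not pass in any of its 3 probe sets (-1.15, -0.42 and 0.11 in TSA). Of 9 probe sets of 5 fibroblast genes, 2 rose in TSA, Col1a1 94305_at (4.31) and Thy1 (3.00), while the other 7 ran from -1.37 to 1.13. In all, 4 of the 9 had a change below 0, among them Fn1 (-0.18) and 2 of the 3 probe sets of Col3a1 (-1.37 and -0.68). The summed ratio of those 9 was 6.27 to 12.6 in vehicle, 6.70 to 10.2 in RA and 26.8 to 42.3 in TSA, and their median ratio was 0.579 to 1.17, 0.704 to 0.952 and 1.03 to 1.25. On the TSA arrays Col1a1 94305_at alone stood at 13.95, 26.8 and 22.1, and Thy1 at 6.23, 8.26 and 6.68. Whether the cultures held such cells, and whether these had a part in the Psmb9 values, was not tested.

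The rest of the proteasome showed no change past the test. Without the immune subunits, 48 probe sets of 37 genes remained, and none passed in RA, TSA or RA against TSA. Of these 48, 2 had an unadjusted p under 0.05 in RA, 11 in TSA and 5 between the treatments (limma). The shares of all probe sets were 12.7%, 19.6% and 17.1%. The median log2 change of the 48 was -0.21 in RA and -0.27 in TSA, and all probe sets together had -0.12 and -0.17. In RA 39 of the 48 had a change below 0 and in TSA 36, against 62.3% and 63.9% of all probe sets. After centring each array on its median, the medians of the 48 were -0.053 and -0.072, and those of all probe sets 0.035 and 0.029. Over the 53 members, arrays did not overlap for 6 in RA (17% of all probe sets), 19 in TSA (26.3%) and 12 between RA and TSA (27.3%). In RA 2 of the 6 were higher (5.93% of all) and 4 lower (11%), and in TSA 5 of the 19 were higher (9.26%) and 14 lower (17.1%).

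**Figure D3:**
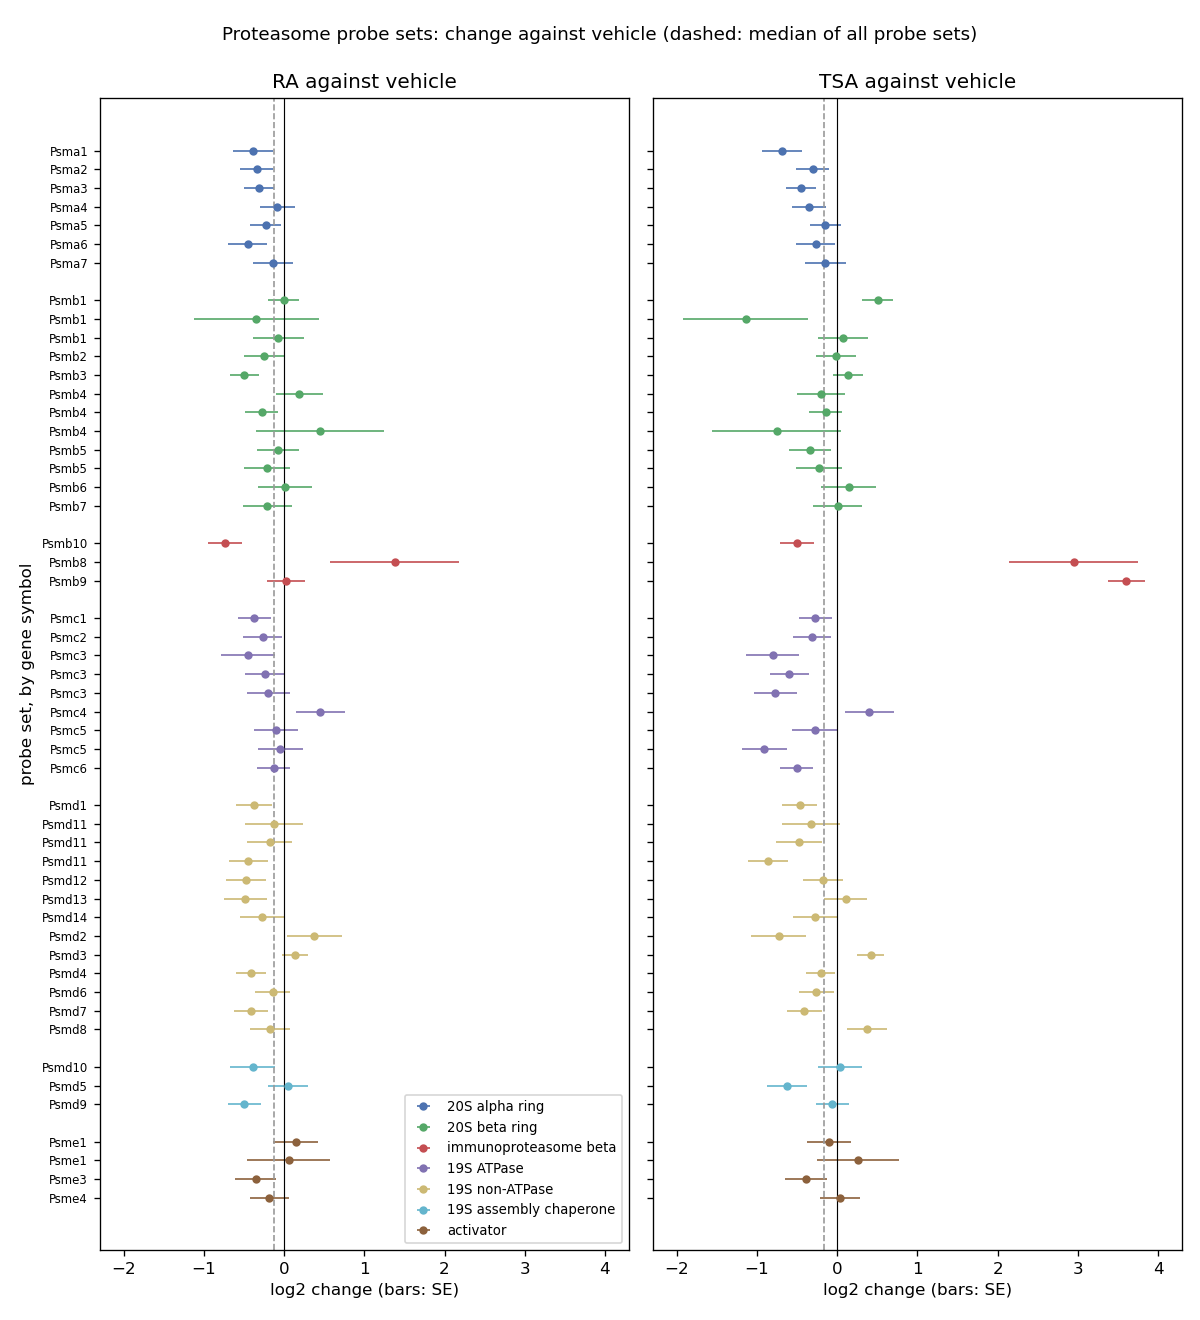
Log2 change (horizontal axis) of each of the 51 probe sets of proteasome genes in RA (left) and TSA (right) against vehicle, with SE bars from limma, coloured by subcomplex; the dashed line is the median of all probe sets, -0.12 and -0.17. Most points lie within 1 log2 unit of 0 in both panels, and Psmb9 (3.60) and Psmb8 (2.95) stand apart in TSA.

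The alpha ring, whose subunits gate the entry to the core, was measured by 1 probe set for each of Psma1 to Psma7, and none passed. All 7 changes were below 0 in both treatments, from -0.45 to -0.08 in RA and from -0.69 to -0.15 in TSA; after centring the arrays, 5 of 7 were below 0 in each. Psma1 had ratios of 1.36, 0.981 and 0.664 in vehicle, 0.753, 0.710 and 0.700 in RA, and 0.613, 0.580 and 0.542 in TSA. The TSA arrays all lay below the vehicle and RA arrays, and RA overlapped vehicle (TSA change -0.69, SE 0.25, adjusted p = 0.179, limma). Without vehicle replicate 3, its lowest vehicle array, its TSA change of -0.94 passed with an adjusted p of 0.0472 (limma). That was the 1 pass among the 18 other settings that held Psma1. Leaving out 1 array at a time gave TSA changes from -0.94 to -0.45, with adjusted p up to 0.389 (limma). Psma6 was lowest in RA, at 0.823, 0.595 and 0.697 against 1.31, 0.948 and 0.746 in vehicle (-0.45, adjusted p = 0.494, limma), and stood at 0.819, 0.902 and 0.694 in TSA. Psma4 had the smallest difference in RA, with 0.821, 1.00 and 0.978 against 1.19, 0.976 and 0.830 in vehicle, and was at 0.939, 0.694 and 0.681 in TSA. Psma7 had the smallest change in TSA (-0.15), with 0.962, 0.947 and 0.770 against 1.18, 0.987 and 0.829 in vehicle, and 1.24, 0.691 and 0.840 in RA.

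In the constitutive beta ring, 12 probe sets of 7 genes, none passed. The Psmb1 probe set 160875_at had ratios of 1.13, 0.997 and 0.875 in vehicle, 0.949, 0.870 and 1.18 in RA, and 1.42, 1.55 and 1.34 in TSA. All TSA arrays were above the others, with a change of 0.50 (SE 0.19, adjusted p = 0.200, limma). Its probe set 161923_at ran from 0.304 to 1.83 within vehicle, from 0.258 to 1.94 in RA and from 0.203 to 0.458 in TSA (-1.14, SE 0.78), and the third, 98113_at, had a TSA change of 0.08. Probe sets of this gene therefore disagreed in direction, with wide errors. Psmb3 had 1.02, 1.05 and 0.935 in vehicle, 0.834, 0.605 and 0.657 in RA, and 1.11, 1.05 and 1.14 in TSA. It was lower on all RA arrays than on all vehicle and TSA arrays, with changes of -0.50 against vehicle (SE 0.18, adjusted p = 0.293) and -0.63 against TSA (SE 0.18, adjusted p = 0.108, limma). Psmb4 98558_r_at was at 0.551, 1.68 and 0.768 in vehicle, 0.626, 0.738 and 4.03 in RA, and 1.20, 0.214 and 0.484 in TSA. Its high value rested on RA replicate 3, and the other probe sets of Psmb4 had RA changes of 0.19 and -0.28. Psmb2 had log2 changes of -0.25 in RA and -0.02 in TSA, without passing. The ring's median change was -0.14 in RA and -0.079 in TSA, and turned to 0.015 and 0.12 after centring the arrays.

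The ATPases Psmc1 to Psmc6, which unfold the substrate, had a median change of -0.20 in RA and -0.50 in TSA over 9 probe sets. In TSA 8 of 9 changes were below 0, also after centring the arrays (median -0.30). For 5 of the 9 the arrays did not overlap with vehicle, all lower (17.1% of all probe sets). The 5 were all 3 probe sets of Psmc3, Psmc5 161921_f_at and that of Psmc6, so 3 of them measure 1 gene. None of the 9 passed. Psmc3 100225_f_at had 1.38, 0.869 and 0.748 in vehicle, 1.08, 0.616 and 0.496 in RA, and 0.430, 0.566 and 0.619 in TSA, a change of -0.80 (SE 0.33, adjusted p = 0.227, limma). Its probe set 93735_f_at had a TSA change of -0.77 and 93734_i_at of -0.60. Psmc5 161921_f_at had 1.12, 0.967 and 0.918 in vehicle, 0.704, 1.07 and 1.18 in RA, and 0.412, 0.429 and 0.732 in TSA (-0.91, SE 0.28, adjusted p = 0.121, limma). The further Psmc5 probe set, 160534_at, had a TSA change of -0.28. Psmc4 had 0.983, 0.986 and 1.03 in vehicle, 1.28, 1.84 and 1.12 in RA, and 0.837, 1.56 and 1.81 in TSA. Its RA arrays were all above vehicle (0.45, SE 0.31, adjusted p = 0.608, limma). Between the treatments 1 of 9 ATPase probe sets had a difference below 0 (45.8% of all), with a median of 0.35 in favour of RA, and none passed.

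The other subunits of the regulatory particle were measured by 13 probe sets of 11 genes, with a median change of -0.27 in RA and -0.28 in TSA, and none passed. Psmd11, a lid subunit, had in its probe set 94796_at ratios of 0.941, 0.813 and 1.25 in vehicle, 0.687, 0.543 and 0.952 in RA, and 0.502, 0.506 and 0.550 in TSA. Its TSA arrays were close together and below all vehicle arrays, with a change of -0.86 (SE 0.25, adjusted p = 0.101, limma); those of its other probe sets were -0.48 and -0.32. Psmd3, a lid subunit, was higher on all TSA arrays, at 1.27, 1.36 and 1.42, than on the vehicle arrays, at 0.893, 1.06 and 1.05, and was at 1.11, 1.07 and 1.12 in RA (TSA change 0.42, SE 0.17, adjusted p = 0.211, limma). Psmd2, a large scaffold of the base, had 1.10, 1.06 and 0.837 in vehicle, 0.873, 1.97 and 1.28 in RA, and 0.886, 0.504 and 0.429 in TSA. It overlapped between all groups (RA change 0.38, TSA change -0.73). Psmd13, a lid subunit, was lowest in RA, with 0.883, 0.651 and 0.543 against 1.30, 1.00 and 0.700 in vehicle and 0.962, 1.15 and 1.05 in TSA (RA change -0.49, SE 0.27, adjusted p = 0.502, limma). Psmd14, the deubiquitinase of the lid, had log2 changes of -0.27 in RA and -0.28 in TSA, and Psmd4, a ubiquitin receptor, of -0.41 and -0.21. The large base subunit Psmd1 had -0.38 and -0.47, and the lid subunit Psmd8 had -0.18 and 0.37.

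The assembly chaperones that carry Psmd names help build the base of the regulatory particle and leave it afterwards. Psmd5 had ratios of 1.16, 0.992 and 0.852 in vehicle, 1.26, 0.817 and 1.06 in RA, and 0.583, 0.828 and 0.505 in TSA. The TSA arrays lay below all vehicle arrays, replicate 2 only just (-0.63, SE 0.25, adjusted p = 0.215, limma). Psmd9 (97929_r_at) had 0.935, 0.992 and 1.07 in vehicle, 0.774, 0.539 and 0.793 in RA, and 0.876, 0.906 and 1.09 in TSA. It was lower on all RA arrays than elsewhere (-0.50, SE 0.21, adjusted p = 0.358, limma). Psmd10, also known as gankyrin, had 1.38, 0.775 and 0.840 in vehicle, 0.529, 0.821 and 0.871 in RA, and 1.04, 0.889 and 1.05 in TSA.

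Of the activators, Psme1, an interferon-responsive subunit of PA28, had in its probe set 101510_at ratios of 1.32, 1.07 and 0.607 in vehicle, 1.01, 1.02 and 1.14 in RA, and 0.828, 0.819 and 1.02 in TSA. The groups overlapped, with a TSA change of -0.10 and a 95% interval of -0.73 to 0.53. Its probe set 161293_r_at was at 0.338, 0.982 and 1.68 in vehicle, 0.707, 1.41 and 0.653 in RA, and 0.985, 1.07 and 0.981 in TSA. Psme3, which forms a nuclear activator, had 1.37, 0.806 and 0.826 in vehicle, 0.722, 0.963 and 0.598 in RA, and 0.750, 0.675 and 0.771 in TSA (TSA change -0.39). Psme4, the large activator PA200, had log2 changes of -0.18 in RA and 0.04 in TSA. The symbols that name no proteasome part, Psmc3ip and Psme3ip1, had log2 changes of -0.58 and -0.46 in RA and of -0.74 and -0.20 in TSA, and their arrays overlapped in both.

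The vehicle arrays differed among themselves for these genes. Of the 51 probe sets, vehicle replicate 1 was the highest vehicle array in 36 (70.6%) and vehicle replicate 3 the lowest in 36, while over all probe sets these shares were 41.1% and 42.3%. All 7 alpha ring probe sets and 8 of 9 ATPase probe sets had vehicle replicate 1 highest and vehicle replicate 3 lowest. The median ratio of the ATPases was 1.26, 0.986 and 0.762 on vehicle replicates 1, 2 and 3, where all probe sets stood at 1.02, 0.984 and 0.975. On the TSA arrays the ATPase median was 0.713, 0.739 and 0.688. Vehicle replicate 3 also carried the highest 18S signal; its part in these low values was not tested. Without that array the median change of the 53 members was -0.37 in RA and -0.41 in TSA, against -0.21 and -0.27 with it. Over all omissions of 1 array it ran from -0.37 to -0.097 in RA and from -0.41 to -0.15 in TSA. All probe sets had -0.12 and -0.17 with every array kept.

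**Figure D4:**
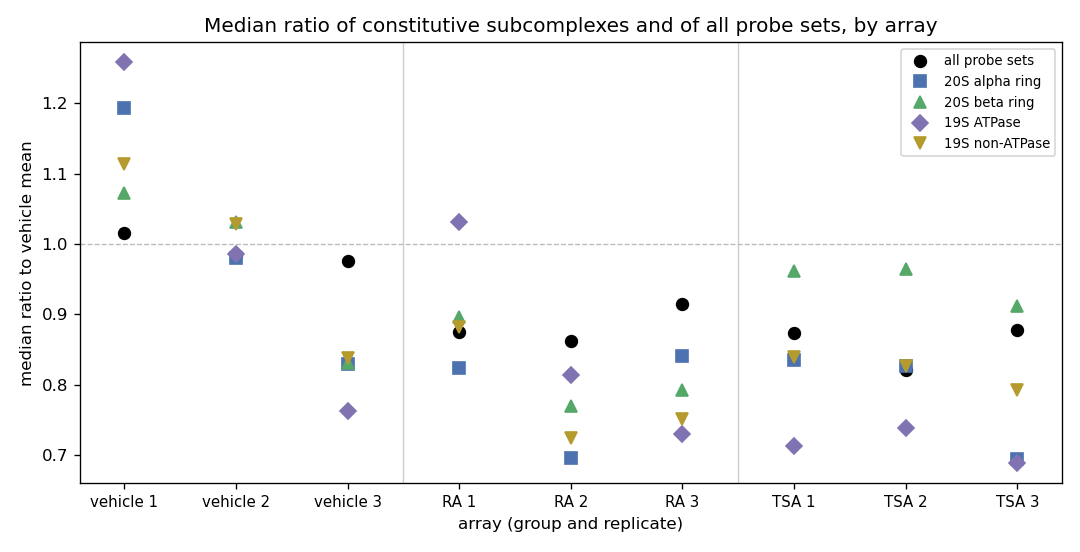
Median ratio to the vehicle mean (vertical axis) of the alpha ring, constitutive beta ring, ATPases and other regulatory particle subunits, and of all probe sets (black), on each of the 9 arrays. The subcomplex medians lie at 1.07 to 1.26 on vehicle replicate 1 and at 0.762 to 0.837 on vehicle replicate 3, whereas all probe sets stand at 1.02 and 0.975.

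Among other genes of the ubiquitin-proteasome pathway 1 probe set passed. Of 28 listed genes 15 were measured, by 23 probe sets. In TSA 1 of the 23 fell and none rose, where 3.48% of all probe sets passed in either direction. In RA none passed (1.36% of all), and 3 had an unadjusted p under 0.05 (12.7% of all, limma). The 1 that fell in TSA was Rad23b, a shuttle that brings ubiquitin-tagged proteins to the proteasome. Its probe set 96102_i_at had ratios of 1.11, 0.933 and 0.953 in vehicle, 0.669, 0.719 and 0.710 in RA, and 0.567, 0.440 and 0.527 in TSA. The vehicle arrays were highest and the TSA arrays lowest with no overlap (TSA change -0.91, SE 0.18, adjusted p = 0.0320, limma), and the further probe set 96103_f_at had -0.54 without passing. Nfe2l1, which drives proteasome genes when the proteasome is short, had log2 changes of 0.12 and 0.13 in RA and of -0.13 and -0.19 in TSA in its probe sets. The core assembly chaperone Psmg1 had 1.06, 0.987 and 0.955 in vehicle, 0.645, 0.461 and 0.674 in RA, and 0.785, 0.671 and 0.803 in TSA, below vehicle on every treated array (RA change -0.72, adjusted p = 0.143, limma). Pomp, which matures the core, had log2 changes of -0.04 in RA and 0.29 in TSA, and Uchl5, a deubiquitinase of the regulatory particle, of -0.84 and -0.52. The ATPase Vcp, which extracts substrates, had changes of -0.61 to -0.33 in TSA over 4 probe sets and of -0.34 to 0.34 in RA. None of these passed. The median over the 23 was -0.14 in RA and -0.33 in TSA.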

How the data were processed

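Expression was measured on 9 oligonucleotide arrays of F9 cells, 3 per group, with groups and replicate numbers from the sample titles. The deposited values are ratios made by the authors: the mean over vehicle arrays was 1, within 1e-05, for each of 12488 probe sets. Per the labels, the Affymetrix protocol was followed, and the vehicle data went into GeneSpring. How scans were scaled is not stated in the labels or the file, and brightness cannot be recovered. The 66 control probe sets were left out. Symbols came from the platform annotation, updated through Entrez IDs with RefSeq (GRCm38.p6); no member's symbol changed.

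A pseudocount of 0.05 was added to the deposited ratio before log2, which understates fold changes of low values. All comparisons came from a single model of the 9 arrays with 6 residual degrees of freedom, fitted with limma 3.58.1 in R 4.3.3 and tested on simulated data. Intervals are 95% intervals of that fit. No filter was used, so all 53 members were tested. The number of arrays limits the precision. Named members were those past the test, the immune catalytic subunits and their counterparts, and Psme1 and Psme2. The highest and lowest change of each subcomplex per treatment were also named. Psmb2, Psmc6, Psmd1, Psmd4, Psmd8, Psmd14, Psme4 and the unpassed genes of other lists were named after their values were seen. The members and lists were chosen with earlier results of these data known. Settings varied were the pseudocount (0.01 or 0.1), quantile normalisation, centring, a filter on the lowest 30% by mean, averaging the probe sets of a gene, a variance trend, the 6 arrays compared, a replicate block, leaving out each array, and leaving out vehicle replicate 3 with RA replicate 3.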

Additional observations from a re-analysis of the deposited data

How the results depend on the processing

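The rise of Psmb9 in TSA passed in all 19 other settings, with log2 changes of 2.87 to 3.80 and adjusted p of 5.74e-04 to 0.00628 (limma), and so did its difference between RA and TSA. No member passed in RA in any setting. In TSA the count of members that passed was 1 in 17 settings, 3 without vehicle replicate 3 (range 1 to 3 when leaving out 1 array) and 2 without the pair of high-18S arrays (vehicle replicate 3 and RA replicate 3). The median change of the members was below 0 in every setting in RA and TSA. It was -0.053 (RA) and -0.070 (TSA) after centring, -0.115 in TSA after quantile normalisation, -0.348 (RA) and -0.408 (TSA) without that pair, and -0.372 to -0.097 (RA) and -0.408 to -0.150 (TSA) when leaving out 1 array. Counts over all probe sets moved more. For RA, 169 became 87 after quantile normalisation, 111 with the variance trend, 61 from the 6 arrays, 98 without that pair and 54 to 209 when leaving out 1 array. For TSA, 432 became 108 after quantile normalisation, 168 from the 6 arrays and 107 to 494 when leaving out 1 array. For RA against TSA, 486 became 152 after quantile normalisation and 167 to 624 when leaving out 1 array. Centring gave 148 higher of 185 in RA and 379 higher of 461 in TSA, against 116 of 169 and 274 of 432. Same-numbered arrays correlated at -0.032 to 0.289, the replicate 3 arrays among them at 0.190 to 0.289. Arrays with unlike numbers correlated at -0.300 to 0.171. Values were centred within each group first, so these correlations cannot settle whether the numbers pair the arrays. With the replicate block the counts were 141, 438 and 455, and the members' counts 0, 1 and 1. Psmb8 in TSA then had an adjusted p of 0.0629 (limma). Brightness over background was not available, so it is not known which ratios rest on dim signals.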
